A study of Mus musculus with 14 samples.

Results

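SMAD and SKI genes encode the proteins that carry and restrain signals of the TGF-beta family inside the cell. Binding of PRDM16 at 8 of them (Smad1, Smad3, Smad4, Smad5, Smad6, Smad7, Ski and Skil) was followed here by chromatin immunoprecipitation and sequencing (ChIP-seq) in embryonic mouse ventricles. PRDM16 is a zinc-finger transcription regulator. A peak of the wild-type (WT) list was assigned to the protein-coding gene whose body lay nearest to its summit, the position of highest signal. This gave 45 peaks of 17587 for the 8 genes, out of 21887 protein-coding genes of RefSeq (GRCm38). Each of the 8 genes was nearest to at least 1 peak, against 32.9% of all protein-coding genes. The 8 genes were chosen with earlier results of these data known, and the background was not matched for gene length. Both shares are therefore a description and not a test. In such bulk tissue, fewer cells with a bound site and less binding per cell cannot be told apart.

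All 14 samples are ventricles of C57BL/6 mouse embryos at E13.5, with 7 ChIP libraries made with a PRDM16 antibody and 7 input libraries. Ventricles with the atria removed gave 2 WT PRDM16 libraries with 2 inputs and 1 library of the Prdm16 conditional knockout (Prdm16cKO) with 1 input, each pooling 3 hearts. Isolated left (LV) and right ventricles (RV) of WT embryos, 10 to 12 pieces per sample, gave 2 PRDM16 libraries and 2 inputs each. Neither the labels nor the series text used here name the Cre driver of the knockout. WT samples are labelled as mock for genetic manipulation. RNA was not measured in these files, so that the labelled tissue could not be checked against marker genes, and binding is not set beside expression. Whole reads per library were worked out from the deposited LV and RV means. Within WT peaks they came to 330443 (LV A) and 184244 (LV B) for the left and to 281797 (RV A) and 267808 (RV B) for the right ventricle. In each ventricle, A names the library with more reads and B the other. The letters carry no replicate number, and give the order in which values are listed below.

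As background, ligands of the TGF-beta and BMP families activate kinase receptors that phosphorylate receptor SMADs. Smad3 serves mainly TGF-beta and activin receptors, and Smad1 and Smad5 serve BMP receptors. Receptor SMADs join the common partner Smad4 and enter the nucleus to act on genes. Smad6 and Smad7 are inhibitory SMADs that damp the pathway and are themselves induced by it. Ski and Skil (SnoN) are corepressors that bind SMAD complexes on DNA, and PRDM16 is known to bind SKI. BMP signalling is required for growth of the ventricular wall and for the valve cushions of the embryonic heart.

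Start regions are shown first, because several genes carried a peak there. RefSeq (GRCm38.p6) start windows of 250 bases before to 50 bases after a transcription start were found for 5 of the 8 genes, Smad1, Smad3, Smad5, Smad6 and Ski. Smad4, Smad7 and Skil had no such window, so that a peak over their start was not looked for here. A WT peak lay over a start window of Smad3, Smad5 and Smad6, and over that of 9.24% of all protein-coding genes in the table. The windows are written 5′ to 3′ on the strand of the gene, with bases under a WT peak in capitals, so that the covered part can be set beside Ski, which had no peak over its start. The window of Smad3 is chr9:63757945-63758244 (minus strand), that of Smad6 is chr9:64022010-64022309 (minus), that of the most downstream of the 3 starts listed for Smad5 is chr13:56703418-56703717 (plus), and that of Ski is chr4:155222486-155222785 (minus).
Smad3: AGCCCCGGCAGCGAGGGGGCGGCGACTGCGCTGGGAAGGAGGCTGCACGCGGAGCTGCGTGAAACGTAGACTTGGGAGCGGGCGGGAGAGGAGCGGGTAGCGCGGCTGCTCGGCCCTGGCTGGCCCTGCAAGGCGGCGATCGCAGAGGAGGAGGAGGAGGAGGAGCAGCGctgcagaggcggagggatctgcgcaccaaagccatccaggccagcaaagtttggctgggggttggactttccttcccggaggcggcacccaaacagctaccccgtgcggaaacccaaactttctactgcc
Smad6: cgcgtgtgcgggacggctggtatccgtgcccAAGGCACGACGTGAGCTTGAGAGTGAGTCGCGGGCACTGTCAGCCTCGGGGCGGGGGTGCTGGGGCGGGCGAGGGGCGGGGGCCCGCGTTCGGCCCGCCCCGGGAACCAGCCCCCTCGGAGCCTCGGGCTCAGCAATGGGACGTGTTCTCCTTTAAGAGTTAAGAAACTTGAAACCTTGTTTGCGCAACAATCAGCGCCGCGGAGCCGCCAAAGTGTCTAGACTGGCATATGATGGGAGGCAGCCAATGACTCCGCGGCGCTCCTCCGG
Smad5: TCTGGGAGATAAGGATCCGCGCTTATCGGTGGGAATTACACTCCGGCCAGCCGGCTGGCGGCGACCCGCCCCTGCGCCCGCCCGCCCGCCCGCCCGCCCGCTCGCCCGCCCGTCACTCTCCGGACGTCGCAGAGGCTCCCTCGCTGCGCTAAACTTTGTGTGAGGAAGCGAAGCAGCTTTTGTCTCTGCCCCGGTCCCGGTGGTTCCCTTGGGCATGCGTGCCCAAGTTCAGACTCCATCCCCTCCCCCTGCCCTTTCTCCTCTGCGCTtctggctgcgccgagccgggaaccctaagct
Ski: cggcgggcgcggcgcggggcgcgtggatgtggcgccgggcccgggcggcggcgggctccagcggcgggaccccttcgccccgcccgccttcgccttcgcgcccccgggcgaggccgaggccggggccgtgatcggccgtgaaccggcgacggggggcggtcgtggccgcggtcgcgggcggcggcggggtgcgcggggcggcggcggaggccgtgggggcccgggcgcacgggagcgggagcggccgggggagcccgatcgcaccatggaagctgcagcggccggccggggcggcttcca

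The Smad3 peak covered 170 bases of the window, the upstream part. Peaks of Smad6 and Smad5 covered 269 bases each. Content of G and C was 67.7% in the Smad3 window, 66.3% in that of Smad6, 68.0% in that of Smad5 and 85.3% in that of Ski. The median was 52.7% over all 32851 windows and 62.0% over the 2158 windows under a WT peak. Ski thus had the window richest in G and C of these and no peak over it. Motifs were searched on both strands. The SMAD box CAGACA (in 21.0% of all windows), the T-box motif AGGTGT (13.7%) and the TEAD motif GGAATG (14.7%) had no match in the printed windows. The GC-rich SMAD site GGCGCC (11.9% of all windows, 24.1% of windows under a peak) had 1 match in the Ski window, from base 31, and none in the other printed windows. The further Smad5 start windows, which overlap each other and are not printed, held a match from base 274 and from base 232. No peak lay over them. The palindrome GTCTAGAC, a known SMAD binding element, was searched after the Smad6 sequence had been read. It had 1 match in the Smad6 window, from base 247 and under the peak, and was present in 0.213% of all windows and in 0.417% of windows under a WT peak. None of the other motifs matched in that window, so that no match overlapped it. These matches describe letters and were not tested as binding sites.

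The number of peaks differed widely among the 8 genes. Smad6 had 16 peaks, Smad3 had 11, Smad7 had 7 and Ski had 5, whereas Smad1 and Smad4 had 2 each and Smad5 and Skil had 1 each. This order depends on the assignment to the nearest protein-coding gene at any distance. With RefSeq genes of every type, Smad3 had 11 peaks, Smad6 and Ski 5 each and Smad7 had 3, and within 10000 bp Smad3 had 11 and Smad6 and Smad7 had 6 each. With all peaks within 50000 bp of a gene, whichever gene was nearest, Smad6 had 14, Smad3 had 12, Smad7 had 11, Ski had 7 and Smad5 had 5. Among all protein-coding genes, 35 genes (0.160%) had at least as many peaks as Smad6, 145 (0.662%) at least as many as Smad3, and 480 (2.19%) at least as many as Smad7. Per 100 kb of sequence nearest to the gene Smad7 had 8.10 peaks, Smad6 had 7.47, Ski had 5.89 and Smad3 had 5.24. Skil had 1.60, Smad4 had 1.89, Smad5 had 1.33 and Smad1 had 0.991 per 100 kb. These values per length rest on the same assignment, under which most peaks of Smad6 and Smad7 lay nearer to an lncRNA gene or a pseudogene, while those of Smad3 and Ski did not. These counts have no error, since each list is a single call on WT samples.

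**Figure D1:**
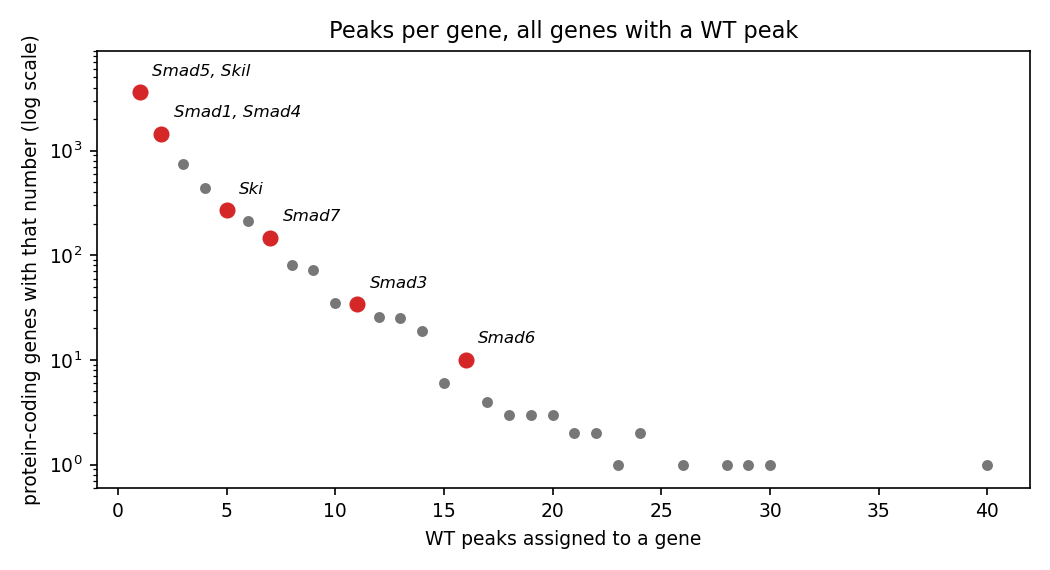
Number of protein-coding genes (log scale) by the number of WT PRDM16 peaks assigned to them, with SMAD and SKI genes in red. Smad6 with 16 peaks and Smad3 with 11 lie in the tail of the distribution, and Smad5 and Skil with 1 peak lie at its start.

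Peak strength is given as the authors' fold enrichment, the ratio of ChIP signal to background in the peak caller's output, which is used here only to describe peaks within this list. Over the 45 peaks it ran from 2.54 to 9.80 with a median of 4.22, against a median of 4.004 over all WT peaks. Of the 45 peaks, 14 (31.1%) had a fold of at least 5, against 26.1% of all WT peaks. The strongest peak of each gene had a fold of 9.80 at Smad6, 9.27 at Smad3, 6.83 at Smad7, 6.48 at Ski, 6.20 at Smad1, 5.80 at Smad4, 5.75 at Skil and 3.44 at Smad5. Of the genes with a peak, 6.97% had a strongest peak at least as high as that of Smad6, and 80.8% at least as high as that of Smad5. These shares were not matched for the number of peaks, which had a median of 1 per gene with a peak. A highest value can rise with that number.

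Peaks of these genes lay at gene ends, inside genes and around them. Summits within 1000 bp of the end of a protein-coding gene numbered 8 of 45 (17.8%), against 16.4% of all WT peaks, a share near the background. Deeper inside a gene lay 21 (46.7%, against 48.5%), outside but within 50000 bp lay 13 (28.9%, against 19.5%), and further away lay 3 (6.67%, against 15.6%). The gene end peaks fell on 7 of the 8 genes, Ski being the exception. The median gap between neighbouring summits of a gene was 8326 bp, against 43271 bp between neighbouring WT summits genome-wide. The former are gaps within 1 gene and the latter gaps along whole chromosomes, so that the values are not of 1 kind.

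**Figure D2:**
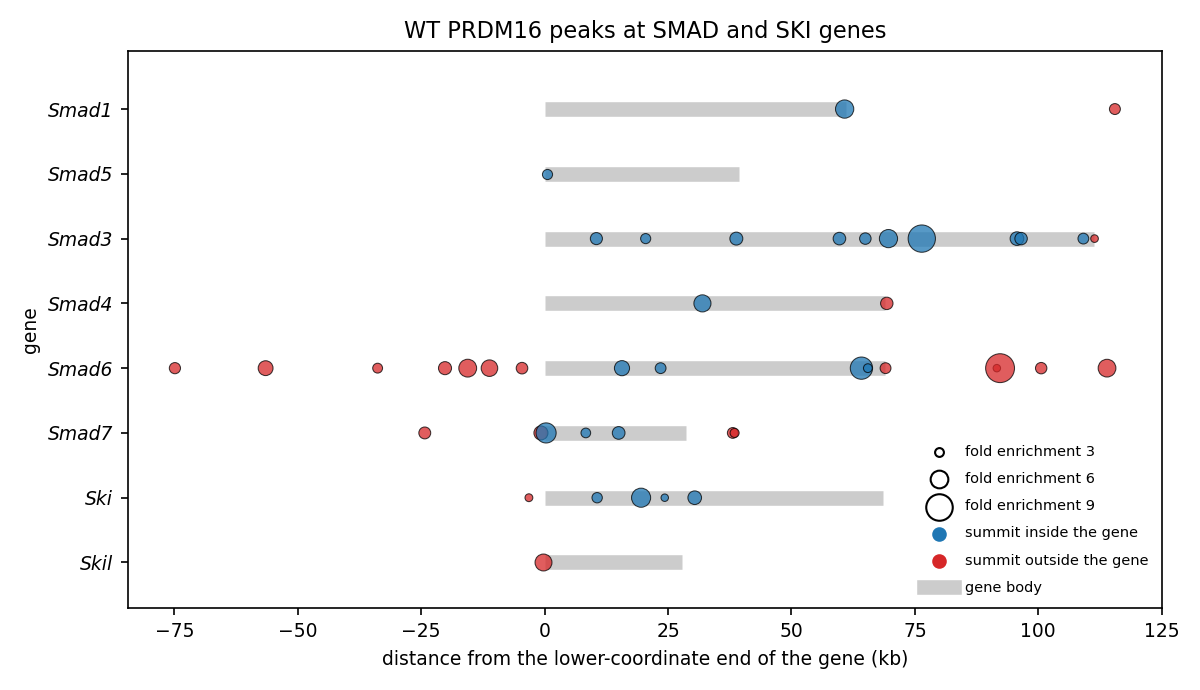
Positions of the 45 WT peak summits relative to the lower-coordinate end of each gene, in kb, with the gene body in grey, summits inside genes in blue and outside in red, and point area growing with fold enrichment. Peaks of Smad3 and Ski lie mostly inside the gene, those of Smad6 mostly on both sides of it.

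None of the 45 peaks overlapped a peak of the knockout list by at least 1 bp (0 of 45, exact 95% binomial interval 0 to 7.87%), against 1.12% of all WT peaks. None of the 330 knockout peaks was assigned to any of the 8 genes. The nearest knockout peak lay 133013 bp from a peak of Smad4, and at least 1158118 bp from peaks of the other genes. The knockout list comes from 1 library whose depth is not given, so that no test between genotypes was possible and the interval covers counting error alone. It takes neighbouring peaks as independent, and it includes the 1.12% of all WT peaks.

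Smad1, a receptor SMAD of BMP signalling on chromosome 8 at 79338395 to 79399428, had a peak just inside its start and a second far upstream. The first, at 79398833 to 79399364, had a fold of 6.20 and its summit 262 bp downstream of the start. Normalized reads, which are whole reads times the authors' factor for the library, were 21.6 and 27.8 in LV and 13.9 and 33.8 in RV. Both RV libraries lay outside the LV range, 1 below and 1 above it. The second peak (79453803 to 79454022) lay 54483 bp outside Smad1 and had a fold of 3.71, with 2.98 and 4.40 in LV and 5.20 and 10.6 in RV. Both RV libraries were above both LV libraries there, but the difference did not pass (log2 RV over LV 0.87, SE 0.589, limma adjusted p = 0.847). The lncRNA gene Gm39205 lay nearer to that peak than Smad1.

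Smad5, the other BMP receptor SMAD here, on chromosome 13 at 56703010 to 56742378, had a single peak at 56703393 to 56703686. Its fold of 3.44 was the lowest among the strongest peaks of the 8 genes, and its summit lay 198 bp before the most downstream of the 3 RefSeq starts. The 269 capitals of the Smad5 window above are the covered bases. Normalized reads were 8.93 and 13.2 in LV and 6.93 and 3.86 in RV. Both LV libraries were higher than both RV libraries, and the difference did not pass (log2 -0.94, SE 0.502, limma adjusted p = 0.803).

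Smad3, the receptor SMAD of TGF-beta and activin signals on chromosome 9 at 63646766 to 63757994, had 10 of its 11 peaks inside the gene. The strongest, at 63723003 to 63723511, lay 34828 bp downstream of the start with a fold of 9.27 and 22.4% of the normalized reads of all Smad3 peaks. It held 17.1 and 11.7 normalized reads in LV and 24.2 and 16.4 in RV, so that the groups overlapped (log2 0.47, SE 0.373, limma adjusted p = 0.882). A neighbouring peak at 63716099 to 63716596 (fold 6.17) held more reads, 28.3 and 14.7 in LV and 29.4 and 17.4 in RV, and was not named by the rule but chosen after its values were seen. In each ventricle library A was the higher at both of these peaks.

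The peak over the Smad3 start, at 63758075 to 63758321, had a fold of 2.60, the lowest of the 11. Normalized reads were 11.2 and 7.33 in LV and 4.33 and 8.68 in RV, and the groups overlapped. It is the peak whose 170 covered bases are printed in capitals above. Of the other 8 Smad3 peaks, all inside the gene, folds ran from 3.43 to 4.63. At 63711615 to 63711780 the whole reads were 0 and 3 in LV and 4 and 1 in RV, and at 63743181 to 63743346 they were 3 and 2 in LV and 4 and 0 in RV, so that LV and RV could be compared there over few reads only. Both peaks were chosen after their values were seen.

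Smad4, the partner common to all receptor SMADs, on chromosome 18 at 73634790 to 73703791, had 2 peaks. That inside the gene, at 73666532 to 73666863, had a fold of 5.80, with 8.93 and 11.7 in LV and 5.20 and 14.5 in RV. The other (73703989 to 73704212), 309 bp outside Smad4 and nearer to the lncRNA gene 4930578L24Rik, had a fold of 4.22, with 7.44 and 10.3 in LV and 8.66 and 2.89 in RV. At both peaks the ventricles overlapped, and RV libraries differed from each other by more than LV libraries did. The smaller p of the pair was at the outer peak (log2 -0.67, SE 0.545, limma adjusted p = 0.884), and it was -1.32 without RV library A and -0.013 without RV library B.

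Smad6, an inhibitor of BMP signalling on chromosome 9 at 63953076 to 64022085, had 4 peaks inside and 12 outside the gene. Of those outside, 7 lay on the side of Smad3 and 5 beyond the start. The peak over the start, at 64021806 to 64022278, had its summit 74 bp upstream of the listed start and a fold of 3.69. Its normalized reads were 8.93 and 17.6 in LV and 24.2 and 11.6 in RV, with overlap between the ventricles. It is the peak that covers the GTCTAGAC palindrome printed above.

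The strongest Smad6 peak, and the strongest of all 45, lay at 64044869 to 64045780, with its summit 23247 bp outside the gene on the side of the start, with a fold of 9.80 and a width of 912 bp, the widest of the 45. It held 23.1 and 32.2 normalized reads in LV and 42.4 and 58.8 in RV. Both RV libraries were above both LV libraries, and the difference did not pass after adjustment (log2 0.85, SE 0.326, unadjusted p = 0.0139, limma adjusted p = 0.676). The peak next but one (64066703 to 64067247) lay 44911 bp outside Smad6 and had a fold of 6.02. It held 18.6 and 17.6 normalized reads in LV and 9.53 and 5.79 in RV, the opposite order (log2 -1.18, SE 0.415, unadjusted p = 0.0081, limma adjusted p = 0.610). These were the only 2 of the 45 regions with an unadjusted limma p under 0.05, and summits of both lie upstream of Smad6, 21664 bp apart. The lncRNA genes 1700055C04Rik and 1110036E04Rik, respectively, lay nearer to them than Smad6.

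A ratio within a library does not depend on scaling. Reads at the stronger of both Smad6 peaks over those at the outer peak were 31 to 25 in LV library A (1.24) and 22 to 12 in LV library B (1.83). They were 49 to 11 in RV library A (4.45) and 61 to 6 in RV library B (10.2). The ratio was higher in both RV than in both LV libraries. That order was fixed by the choice of peaks, since RV was higher at the stronger and LV at the outer peak, without overlap. These peaks were picked by their p-values and strength, so that the ratio is a description, without a test.

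Smad3 and Smad6 are neighbours, with 195081 bp and no other protein-coding gene between them. Summits of their 27 peaks spanned 409740 bp, from 63657256 to 64066996, and all WT peaks in that span belonged to 1 of both genes. Between the genes lay 8 peaks, 7 nearest to Smad6. Windows of the same length that begin at each WT summit held a median of 6 peaks, and 0.307% of them held at least 27. The window was drawn around the peaks of both genes, so that this is a description and not a test. Of the 16 peaks of Smad6, 11 had an lncRNA gene or a pseudogene of RefSeq nearer than Smad6, among them Gm36033, and 5 were nearest to Smad6 when genes of every type were counted.

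Smad7, the inhibitor of both TGF-beta and BMP signals, on chromosome 18 at 75367365 to 75395935, had 7 peaks, 3 inside the gene and 4 outside. A pair of them had summits on either side of its lower-coordinate end, 1044 bp apart. The peak at 75367253 to 75367973 lay over that end and was the strongest (fold 6.83). It held 27.5 and 22.0 normalized reads in LV and 28.6 and 20.3 in RV, and the ventricles overlapped. Its neighbour at 75366390 to 75366906, 743 bp outside the gene, had a lower fold of 4.77 and more reads, 30.5 and 29.3 in LV and 54.6 and 31.8 in RV. Both RV libraries lay above LV there, RV library A by far the more, and the difference did not pass (log2 0.47, SE 0.331, limma adjusted p = 0.862). Per 100 bp of peak this neighbour held 7.07 normalized reads, the most of the 45 peaks, and the stronger peak by fold held 3.41. The region of smallest p was at 75405309 to 75405581, 9546 bp outside the gene (fold 3.66), with 5.95 and 10.3 in LV and 1.73 and 4.82 in RV (log2 -1.15, SE 0.613, limma adjusted p = 0.800). RefSeq genes other than Smad7 lay nearer to that region (Gm41776) and to the peak 743 bp outside the gene (Gm20544).

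Ski, the corepressor known to bind PRDM16, on chromosome 4 at 155154075 to 155222535, had 4 peaks inside the gene and 1 outside. The Prdm16 gene lies on the same chromosome, 516714 bp away. The strongest Ski peak, at 155173306 to 155173850, had a fold of 6.48, with 11.9 and 14.7 normalized reads in LV and 15.6 and 10.6 in RV, and the ventricles overlapped. The peak at 155184364 to 155185034 (fold 4.63) was the nearest to the start, at a distance of 38055 bp, with 6.70 and 17.6 in LV and 12.1 and 13.505 in RV. The spread between LV libraries there exceeded that between ventricles.

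The other 3 Ski peaks had folds under 4. That at 155164623 to 155164894 (fold 3.52) held 8.19 and 8.79 normalized reads in LV and 4.33 and 4.82 in RV, with both LV libraries higher (log2 -0.77, SE 0.534, limma adjusted p = 0.859). That outside the gene, at 155150694 to 155150998 and 3179 bp away (fold 2.66), held 9.68 and 8.79 in LV and 15.6 and 10.6 in RV, with both RV libraries higher. That at 155178246 to 155178500 (fold 2.54) held 4.47 and 1.47 in LV and 3.46 and 3.86 in RV, with overlap. Skil, the paralog of Ski on chromosome 3 at 31095058 to 31122923, had 1 peak at 31094408 to 31094832, 391 bp outside the gene, with a fold of 5.75. It held 32.8 and 19.0 in LV and 29.4 and 26.0 in RV, and RV lay within the LV range (log2 0.14, SE 0.342, limma adjusted p = 0.974). Ski thus had more peaks and none within 1000 bp of an end, and Skil a single peak near its lower-coordinate end.

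**Figure D3:**
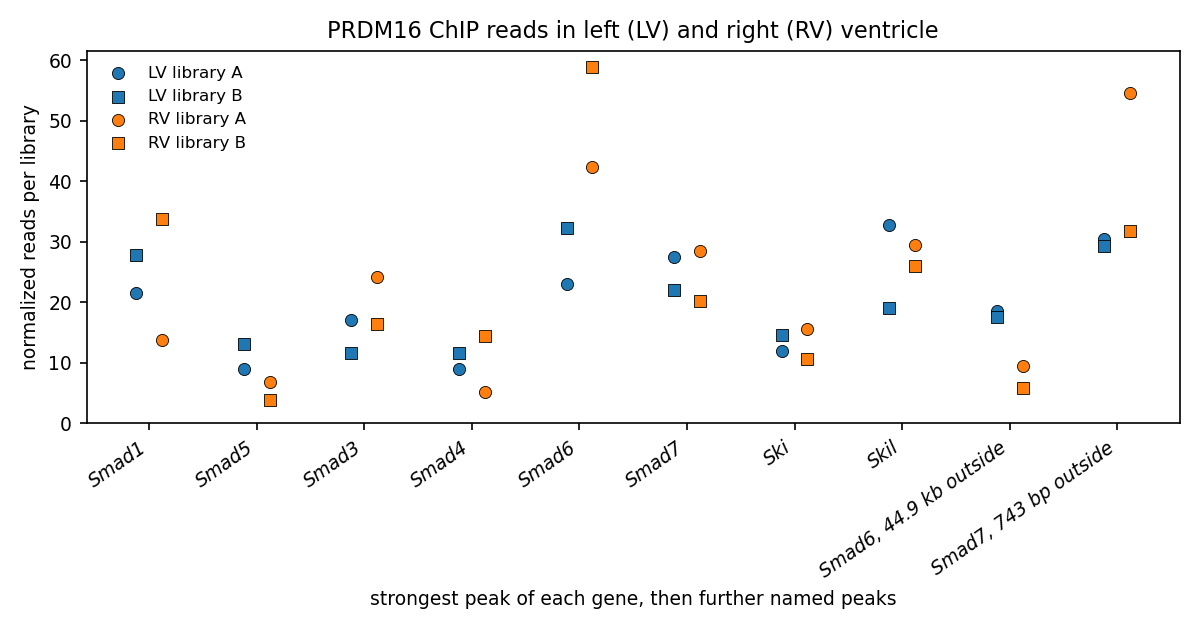
Normalized reads in each LV (blue) and RV (orange) library, A as circles and B as squares, at the strongest peak of each gene and at a second peak of Smad6 and of Smad7. At the strongest Smad6 peak both RV points (42.4 and 58.8) lie above both LV points (23.1 and 32.2), and at the outer Smad6 peak the order is the opposite.

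LV against RV asked whether binding at these genes differed between the ventricles. In the limma fit over all 17587 regions, 0 of the 45 regions passed an adjusted p of 0.05 in either direction (smallest adjusted p = 0.610). Of all regions 0.0284% passed, all higher in LV. At an unadjusted p under 0.05 there were 2 of 45, against 6.32% of all regions. Both were at Smad6, 1 higher in LV (3.13% of all regions) and 1 higher in RV (3.18%). By the p-values of the authors' deposited table, none of the 45 regions passed (0% of all regions did), and none had an unadjusted p under 0.05 (smallest 0.0780, at the strongest Smad6 peak), against 0.483% of all regions. Both LV libraries were above both RV libraries at 8 regions, against 17.9% of all regions, and both RV libraries above both LV libraries at 6, against 17.6%. The median log2 RV over LV of the 45 was -0.019 in the authors' deposited table, against -0.0028 over all regions, and LV had the higher mean at 23 regions (50.2% of all regions) and RV at 22. The log2 was at least 1 in size at 3 regions, against 10.6% of all. These shares lie near or below those of all regions.

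**Figure D4:**
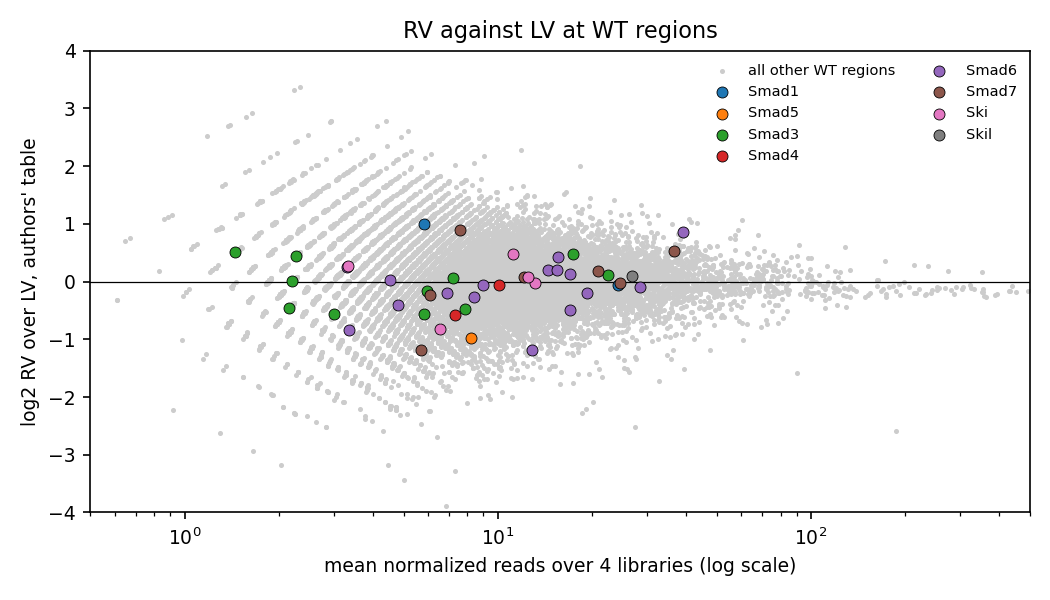
Log2 of RV over LV in the authors' deposited table against the mean of normalized reads over 4 libraries (log scale), for all WT regions (grey) and those of SMAD and SKI genes (coloured), with 42 regions outside the axes. The regions of these genes lie within the cloud of other regions and on both sides of 0.

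Reads summed over the peaks of a gene gave tighter estimates. Summed normalized reads of Smad6 were 234 and 198 in LV and 229 and 216 in RV (log2 0.05, 95% interval -0.37 to 0.46). Those of Smad3 were 83.4 and 70.3 in LV and 86.6 and 70.4 in RV (0.03, -0.42 to 0.48), and those of Smad7 were 109 and 103 in LV and 132 and 111 in RV (0.19, -0.24 to 0.61). For Ski they were 40.9 and 51.3 in LV and 51.1 and 43.4 in RV (0.04, -0.46 to 0.54). LV and RV sums of Smad3, Smad6 and Ski overlapped. Both RV sums of Smad7 were above its LV sums, and the difference did not pass (limma adjusted p = 0.952). At Smad5 both LV sums were above both RV sums. The share of all genes with such an order was not counted. At regions it was 17.9% for LV higher and 17.6% for RV higher. As folds of RV over LV, the intervals ran from 0.775 to 1.38 for Smad6, from 0.747 to 1.39 for Smad3, from 0.850 to 1.53 for Smad7 and from 0.725 to 1.45 for Ski.

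Genes with fewer reads left wider intervals. Summed reads of Smad1 were 24.6 and 32.2 in LV and 19.1 and 44.4 in RV (log2 0.05, -0.60 to 0.70). Those of Smad4 were 16.4 and 22.0 in LV and 13.9 and 17.4 in RV (-0.27, -1.01 to 0.46). For Smad5 the interval was -2.01 to 0.14 around -0.94, and for Skil -0.48 to 0.77 around 0.14. In the limma fit over 7202 genes with a peak, 0 of the 8 genes passed an adjusted p of 0.05 (smallest 0.816, Smad5) and 0 had an unadjusted p under 0.05, against 0.0417% and 6.71% of all genes (3.51% higher in LV and 3.19% higher in RV at the unadjusted p). With 2 libraries per ventricle and a median of 7 to 11 reads per library, the median SE of log2 RV over LV at the 45 regions was 0.49.

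**Figure D5:**
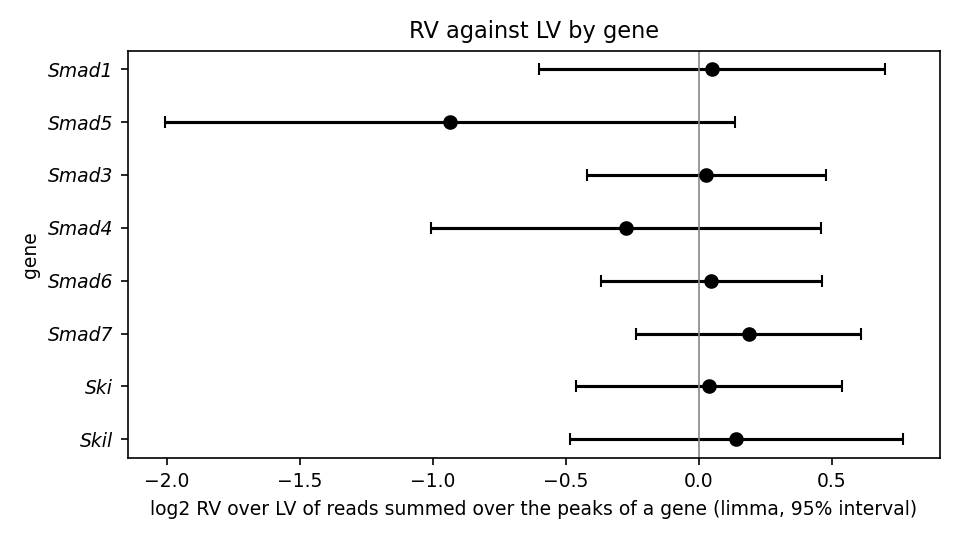
Log2 of RV over LV for reads summed over all WT peaks of a gene, with 95% limma intervals (n = 2 libraries per ventricle). All 8 intervals include 0, and that of Smad5, with 1 peak of few reads, is the widest.

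Fold enrichment in the WT list (ventricles without atria) and reads in the LV and RV libraries ranked the 45 peaks only in part alike. Spearman rho was 0.58 between fold and mean normalized reads, and 0.52 over all WT peaks, as a description across regions that share libraries. With normalized reads per 100 bp of peak, rho was lower, at 0.31, and 0.30 over all WT peaks. The peak with most reads on average was the strongest Smad6 peak, followed by that 743 bp outside Smad7, whose fold was 4.77.

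Other genes of the pathway, from a list of 40, had peaks in 30 cases (75%, against 32.9% of all protein-coding genes), with 117 peaks in all. The list was likewise chosen with earlier results of these data known and not matched for gene length, so that no enrichment was tested. Of the 2 other receptor SMADs, Smad2 had 2 peaks and Smad9 had 3. Among SMAD anchors, ubiquitin ligases and phosphatases 5 of 10 had a peak, with 11 at Nedd4l, a ubiquitin ligase acting on SMADs, and none at Zfyve9, Smurf2, Rnf111, Trim33 or Usp15. Among nuclear partners and repressors 12 of 14 had a peak, and Hdac1 and Ehmt1 had none. Among membrane and feedback inhibitors 5 of 7 had a peak, with 10 at Bambi, a pseudoreceptor, and 8 at Ltbp1, which stores latent TGF-beta in the matrix. Among known targets 6 of 7 had a peak, with 9 at Id2, an inhibitor of helix-loop-helix factors, 7 at its paralog Id4 and none at Id1. One Bambi peak overlapped a knockout peak, the only such case of the 117, against 1.12% of all WT peaks. For LV against RV, 0 of the 117 regions passed in limma in either direction, against 0.0284% of all regions, and 10 had an unadjusted p under 0.05 (6 higher in LV and 4 in RV), against 6.32% of all regions (3.13% in LV and 3.18% in RV).

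Smad6 was compared with 7201 other genes by log2 number of peaks, log2 highest fold and log2 RV over LV of summed reads, each divided by its SD over genes. The genes most like it were Tspan9 (15 peaks, highest fold 9.66, distance 0.116), Ppargc1a (18 peaks, 9.11, 0.262) and Magi1 (16 peaks, 8.83, 0.301).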

How the data were processed

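PRDM16 ChIP-seq of mouse ventricles was used as deposited. Tools listed, per the submitters' processing notes and without role or order, are DESeq2, HOMER, MACS2 2.1.1.20160309 and BWA 0.7.12-r1039, with mm10 and GRCm38 as builds. No source used here says whether replicates were pooled for the peak lists. The authors' peak lists hold a score, a fold enrichment (ratio), a −log10 q-value and a summit offset. The LV and RV signal of the authors' table is 0.5 plus the mean of reads times a factor per library, log2FC is log2 of RV over LV, and its p-value and adjusted p-value come from a test that the file header does not name.

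Whole reads per library were solved from the LV and RV columns (100% of regions with 1 solution, tolerance 1e-07), and 1 read was worth 0.744 (LV A), 1.47 (LV B), 0.866 (RV A) and 0.965 (RV B) normalized reads. limma 3.58.1 in R 4.3.3 was run on log2 of normalized reads plus 1, with a mean-variance trend, over all regions or all genes, with Benjamini-Hochberg adjustment. Scripts were tested on simulated data. Each summit was given to the closest gene body, and 178 summits tied between genes were counted for each of them. The SMAD and SKI genes and the lists were chosen with earlier results of these data known. Named peaks were every peak of genes with at most 5, and otherwise the strongest, those within 1000 bp of an end of the gene and the one of smallest limma p. Named further genes were the 5 with most peaks and those without a peak, of which some are not reported here. Calculations ran in Python 3.11.15 with scipy 1.17.1 and pandas 2.3.3. Nothing says that the replicates of a ventricle came from separate litters, so that p-values measure only the spread between these samples, which may be technical. Alternatives were other peak thresholds and assignments, pseudocounts, a minimum of reads, voom weights, another scaling and each library left out. Input libraries were not used.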

Additional observations from a re-analysis of the deposited data

How the results depend on the processing

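The 45 peaks fell to 14 at a fold enrichment of at least 5, where Smad5 had none, and to 28 with the nearest gene of any type, where Smad6 had 5, Smad7 had 3, and Smad3 and Ski had 11 and 5 as before. With all peaks within 50000 bp of a gene, Smad5 had 5 and Smad7 had 11. All 8 genes had a peak under the other alternatives, and no overlap with a knockout peak appeared under any of 3 settings. For LV against RV, 0 SMAD or SKI regions and 0 genes passed in limma under any of the 9 other settings, of which that with a mean of at least 8 reads tested 26 of the 45 regions. The authors' deposited table, which tests regions and not genes, likewise called 0 of the 45. Calls among all regions were 5, but 1 at a pseudocount of 0.1, 14 at 5, 8 with a mean of at least 8 reads, 17 with voom weights, 0 in the authors' deposited table and 0 to 90 when 1 library was left out (90 without LV library A, 22 without LV B, 0 without either RV library). Calls among all genes were 3, but 6 at a pseudocount of 5, 7 with voom weights and 3 to 25 when 1 library was left out (25 without LV A). Leaving out 1 library turned the sign of summed log2 RV over LV at Smad1 (-0.54 to 0.64, with -0.14 without LV A), Smad3 (-0.12 to 0.18, with -0.093 without LV B), Smad6 (-0.074 to 0.17), Ski (-0.12 to 0.20, with -0.076 without RV A) and Skil (-0.23 to 0.52, for its only peak likewise), none of which was called. Without a change of sign, summed values moved from -0.073 to -0.48 at Smad4 (without LV B and without LV A) and from 0.066 to 0.31 at Smad7 (without RV A and without RV B). Single regions moved from 0.42 to 1.33 at the outer Smad1 peak (without RV B and without RV A), 0.20 to 0.73 at the strongest Smad3 peak (without RV A and without RV B) and -0.60 to -1.70 at the Smad7 peak of smallest p (without RV A and without RV B). They moved from -0.58 to -1.29 at Smad5, from 0.62 to 1.08 at the strongest Smad6 peak and from -0.86 to -1.49 at the outer one. The smallest adjusted p at the 45 regions ran from 0.257 to 0.992 over these limma settings. The causes were not tested. No paired analysis was possible because the LV and RV columns carry no replicate numbers.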
